A study of Sus scrofa with 226 samples.

Results

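Axon guidance ligands and receptors were examined in single sensory neurons of the pig. Members were chosen by name, from all genes whose symbol begins with SEMA, PLXN, EPHA, EPHB, EFNA, EFNB, ROBO, SLIT or UNC5, together with NTN1, NTN4, DCC, NRP1 and NRP2. Of the 30420 genes in the count table, 75 met that rule. Of these, 67 encode semaphorins, plexins, neuropilins, ephrins, Eph receptors, netrins, netrin receptors, Slits or Robos. The other 8 share only the first letters of the name (SLITRK genes, UNC50 and UNC5CL) and were counted apart. Genes with at least 1 CPM (counts scaled to the same total in each cell) in at least 20% of the cells are described, which held for 38 of the 67 guidance genes and for 6 of the 8 others. A symbol was available for 14867 of the 30420 identifiers, so a guidance gene whose identifier had none was not analysed here.

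The study recorded neurons of the dorsal root ganglion, which houses the cell bodies of sensory nerves, with a patch pipette and then collected each cell for Smart-Seq2, a full-length cDNA method for single cells. They came from 10 wild-type pigs of 11 to 20 weeks and from ganglia of cervical, thoracic and lumbar levels, and were taken after 1 day (54.9% of the cells), 2 days (34.5%) or 3 days (10.6%) in culture. The stated aim was to find molecular markers of mechano-insensitive C-fibres, the unmyelinated fibres that do not answer to touch or pressure. Cells with OSMR CPM of at least 50 and ADCYAP1 CPM under 200 are called OSMR-positive here (60 cells, 26.5%, 10 animals), and cells with ADCYAP1 CPM of at least 200 and OSMR CPM under 50 are called ADCYAP1-high (58.8% of the cells, 10 animals). OSMR encodes a subunit of the receptors for oncostatin M and interleukin 31, and ADCYAP1 encodes PACAP, a neuropeptide. Another 6 cells passed both limits and 27 passed neither, and these stayed out of the class comparison. The labels name 1 genotype and no treatment. The main tests between classes or days took the animal as a block, whereas shares of cells were counted over the cells of all animals together.

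Axon guidance cues steer growing axons by attraction or repulsion. Semaphorins act through plexins, and most secreted class 3 semaphorins need a neuropilin as the ligand-binding partner of the plexin. Ephrins are membrane-bound ligands of the Eph receptor tyrosine kinases and signal at cell contacts, Slits act through Robo receptors, and netrins act through DCC and the UNC5 receptors. In sensory ganglia these families pattern the projections to skin and spinal cord during development, and several stay expressed in adult neurons.

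Total counts per cell ran from 109726 to 5506278, with medians of 809680.5 in OSMR-positive and 727901 in ADCYAP1-high cells. The neuronal list (UCHL1, TUBB3, SNAP25, PRPH, STMN2, ELAVL4, RBFOX3, SCN9A and SCN10A) had a summed level of at least 3976.5 CPM in every cell of both classes. Not every cell carried each gene. SCN10A was detected in 88.3% of OSMR-positive and 74.4% of ADCYAP1-high cells, and RBFOX3 in 15% and 33.8%, with a median of 0 CPM in both. OSMR-positive cells also carried IL31RA, at a median of 784 CPM against 2.75 CPM, and SST, at 181.3 against 9.39 CPM. TAC1, the precursor of substance P, had medians of 7440 CPM in OSMR-positive and 4638 CPM in ADCYAP1-high cells. Of the Schwann cell list, 7 of 8 genes were measured, and its summed median was 1267 CPM in OSMR-positive against 667 CPM in ADCYAP1-high cells (ranges of the animal medians 663 to 1993 and 434 to 1136). A single gene of that list, PMP22, had medians of 989 and 506 CPM, whereas SOX10 had 0.699 and 0 CPM, and MBP and PRX 0 CPM in both. The macrophage list (8 of 8 measured) had summed medians of 18.9 and 59.9 CPM (animal medians 1.84 to 712 and 9.68 to 138.7), with C1QA, C1QB, C1QC, TYROBP, AIF1 and CSF1R at a median of 0 in both classes. CD68 had medians of 2.14 and 32.04 CPM and CTSS of 5.28 and 2.84 CPM, OSMR-positive first. The fibroblast list (6 of 6) had summed medians of 33.7 and 9.59 CPM (animal medians 5.40 to 118.8 and 0.393 to 27.7), with only DCN above a median of 0.

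How widely the guidance genes were detected was a first question. The least common of the described genes were SEMA7A (22.6% of all cells), SEMA4G (23.01%) and UNC5C (23.5%), and just below the limit lay EPHA6 (19.5%), EFNB2 (19.03%) and UNC5D (16.8%). The 38 described genes comprised 13 of 20 semaphorins, 6 of 9 plexins, both neuropilins, 3 of 8 ephrins, 6 of 14 Eph receptors, both netrins, all 3 Slits, 2 of 4 Robos and 1 of 5 netrin receptors. DCC, the main attractive netrin receptor, was found in 15.9% of the cells and is not among them. SEMA3A, the prototype repulsive semaphorin, was found in 15.5%.

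The median share of cells with a described gene detected was 65.8% in OSMR-positive and 47.7% in ADCYAP1-high neurons. The same share over all genes was not counted, and the median number of genes with any count per cell was 14019.5 and 13497. After every cell was thinned to 100000 counts, the medians were 40.0% and 27.8% for at least 1 read, a higher limit than 1 CPM. SEMA3G was detected in 83.3% of OSMR-positive cells (exact 95% binomial interval 71.5 to 91.7) and in 33.1% of ADCYAP1-high cells (25.2 to 41.8). NTN4 was detected in 51.7% (38.4 to 64.8) against 20.3% (13.8 to 28.1), and UNC5C in 45% (32.1 to 58.4) against 14.3% (8.83 to 21.4). SEMA3E went the other way, with 55% (41.6 to 67.9) against 91.7% (85.7 to 95.8). These intervals cover counting error only, since cells of an animal share their culture and the reads carry no molecular identifiers. Thinned to equal depth, SEMA3G was seen in 68.3% against 18.0%, NTN4 in 40.0% against 8.27%, UNC5C in 21.7% against 8.27% and SEMA3E in 38.3% against 85.7%.

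**Figure D1:**
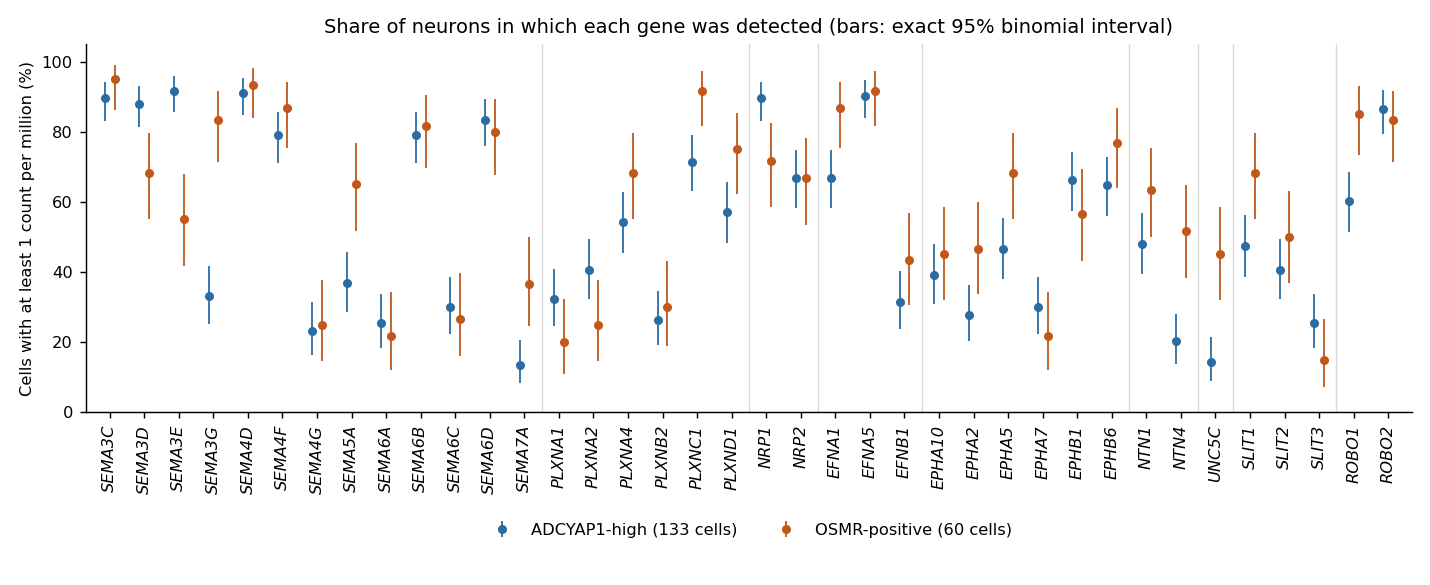
Share of cells (vertical axis, percent) with at least 1 CPM of each of the 38 described guidance genes, for ADCYAP1-high and 60 OSMR-positive neurons; bars are exact 95% binomial intervals and cover counting error only. SEMA3G, NTN4 and UNC5C lie higher in OSMR-positive cells and SEMA3D and SEMA3E lie higher in ADCYAP1-high cells.

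The main comparison asked which guidance genes differ between OSMR-positive and ADCYAP1-high neurons. Secreted semaphorins moved in opposite directions: SEMA3E and SEMA3D were 11.6-fold and 7.31-fold lower in OSMR-positive neurons, and SEMA3G was 6.02-fold higher. The receptor PLXNC1 was 3.21-fold higher and NRP1 3.56-fold lower. NTN4, EFNA1 and EFNA5 were higher, and ROBO2 and SEMA6D were lower. Counts were summed over the cells of a class in each animal and tested with edgeR with the animal as a block, on 18 sums from 10 animals, of which 8 had at least 2 cells of both classes.

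Of the 38 described genes, 37 had enough counts to be tested (SLIT3 had too few), and 14 differed at an adjusted p under 0.05, or 37.8%. Over all 17818 genes tested 9.06% did, as did 9.06% of the 17492 found in at least 20% of the cells. Higher in OSMR-positive neurons were 6 of the 37 (16.2%) against 3.93% of all genes and 3.91% of those in at least 20% of the cells, and lower were 8 (21.6%) against 5.13% and 5.15%. With the cells of an animal weighted equally, as the mean of log2(CPM + 1) in limma, 9 were higher and 3 lower, and over all genes the share of calls that were higher was 62.4%, against 43.4% in edgeR. The median log2 difference was 0.04 over the 37 and -0.03 over all genes. By family, 7 of 13 semaphorins, 2 of 3 ephrins, 2 of 6 plexins, 1 of 2 neuropilins, 1 of 2 netrins, 1 of 2 Robos, 0 of 6 Eph receptors, 0 of 2 Slits and 0 of 1 netrin receptors passed. Among the 29 guidance genes found in fewer cells, 3 had enough counts to be tested and 0 passed. Among the 8 genes that share only a prefix, 6 were tested and 0 passed. The direction was the same in all 8 animals with both classes for 11 of the 14 genes. These genes were chosen by a test on the same animals, and the share over all genes was not counted. For 4 of the 37 the ranges of the animals did not overlap, against 1.61% of all genes tested. Levels are not compared between genes, since gene length enters them.

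**Figure D2:**
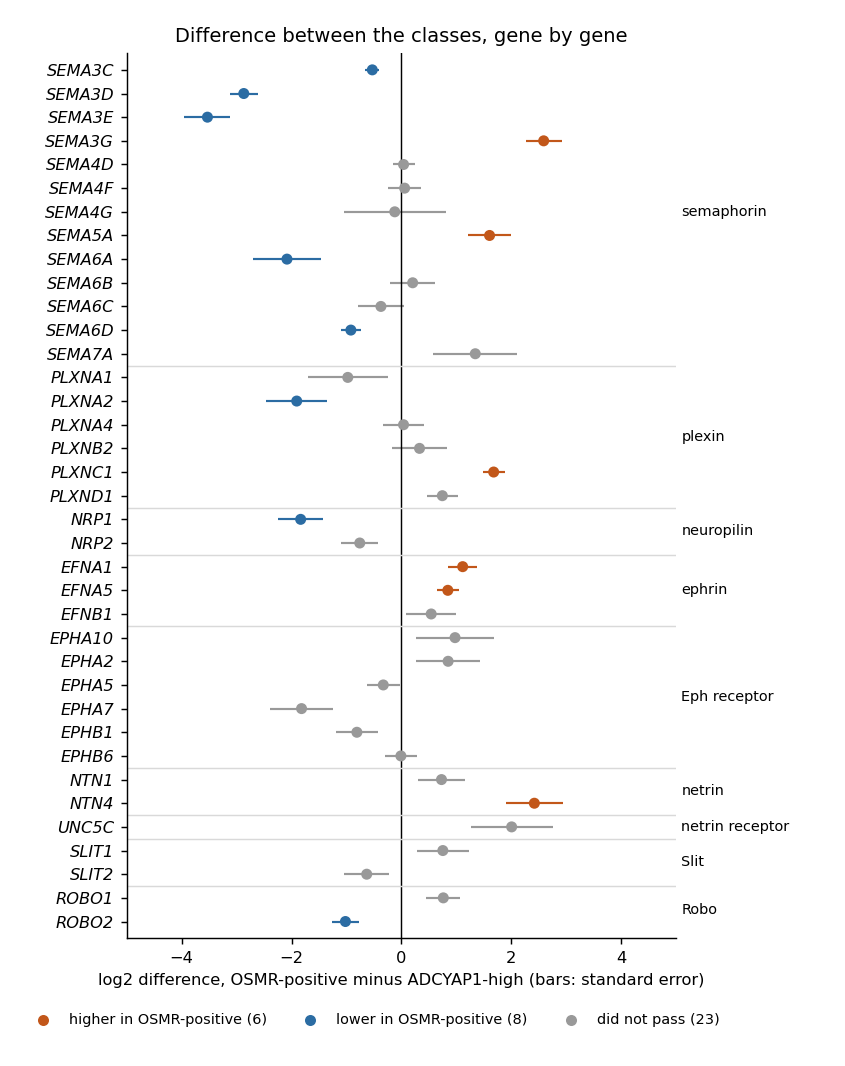
Log2 difference (horizontal axis, OSMR-positive minus ADCYAP1-high, from edgeR with the animal as a block) for the 37 tested guidance genes, grouped by family; bars are standard errors. The 6 genes higher and 8 genes lower in OSMR-positive neurons are coloured, and 23 that did not pass are grey.

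Among the secreted class 3 semaphorins, 3 were lower and 1 higher in OSMR-positive neurons. SEMA3E (ENSSSCG00000015399), whose receptor PLXND1 it can bind without a neuropilin, ran from 66.3 to 276.6 CPM over the 10 animals in ADCYAP1-high sums, with a median of 175.6. In the 8 OSMR-positive sums it ran from 2.38 to 31.5 CPM with a median of 17.9. The ranges did not overlap, and the log2 difference was -3.53 ± 0.42 (SE), with an adjusted p of 4.5e-05 in edgeR and a lower level in 8 of 8 animals.

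SEMA3D (ENSSSCG00000015396) showed the same separation, from 60.6 to 125.1 CPM (median 88.3) in ADCYAP1-high and from 6.14 to 30.8 CPM (median 11.1) in OSMR-positive sums. Its log2 difference was -2.87 ± 0.26 (adjusted p = 2.62e-06, edgeR, lower in 8 of 8 animals). In the RefSeq annotation of the pig assembly Sscrofa11.1, SEMA3D, SEMA3A and SEMA3E follow each other as neighbouring protein-coding genes. SEMA3A between them was detected in 21.7% of OSMR-positive and 9.77% of ADCYAP1-high cells.

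SEMA3G (ENSSSCG00000011440), a ligand of NRP2, ran from 11.1 to 39.6 CPM (median 19.9) in OSMR-positive and from 1.56 to 7.36 CPM (median 2.65) in ADCYAP1-high sums. All OSMR-positive sums lay above all others. The log2 difference was 2.59 ± 0.32 (adjusted p = 7.12e-05, edgeR, higher in 8 of 8 animals).

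SEMA3C (ENSSSCG00000023784), which binds both neuropilins, was detected in 95% and 89.5% of the cells of the classes. It ran from 155.03 to 301 CPM (median 190) in OSMR-positive and from 185.4 to 416 CPM (median 304) in ADCYAP1-high sums, and these ranges overlapped. The log2 difference was -0.53 ± 0.13 (adjusted p = 0.0159, edgeR, lower in 8 of 8 animals). With every cell weighted equally, as the mean of log2(CPM + 1) in limma, it was -0.08 with an adjusted p of 0.905.

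Of the membrane-bound semaphorins, 3 of 9 passed. SEMA6D (ENSSSCG00000004663), a ligand of class A plexins, ran from 14.3 to 52.8 CPM (median 24.8) in OSMR-positive and from 18.4 to 113.5 CPM (median 55.6) in ADCYAP1-high sums. Its log2 difference was -0.92 ± 0.19 (adjusted p = 0.00463, edgeR, lower in 8 of 8 animals), and -0.73 with an adjusted p of 0.0979 in limma on log2(CPM + 1).

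SEMA5A (ENSSSCG00000017095) was 3.04-fold higher in OSMR-positive neurons, from 1.19 to 12.4 CPM (median 5.25) against 0.344 to 3.87 CPM (median 1.39). The adjusted p rose to 0.0693 without animal 4 and to 0.0598 without animal 7. SEMA6A (ENSSSCG00000014224), another ligand of class A plexins, was 4.24-fold lower, from 0 to 2.40 CPM (median 0.853) against 0 to 14.4 CPM (median 3.18), and lower in 6 of 8 animals. Its call was lost in 14 of the 22 alternative analyses in which it could be tested, among them those without animal 2, 4, 5, 7, 9 or 10 (adjusted p from 0.0881 to 0.161, edgeR).

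The 6 membrane-bound semaphorins that did not pass were SEMA4D, SEMA4F, SEMA4G, SEMA6B, SEMA6C and SEMA7A. SEMA4D, detected in 93.3% and 90.98% of the cells, had a log2 difference of 0.04 ± 0.20, and SEMA4F one of 0.06 ± 0.30. SEMA7A, a GPI-anchored ligand of PLXNC1, had medians of 1.96 CPM in OSMR-positive and 0.439 CPM in ADCYAP1-high sums. Its log2 difference was 1.35 ± 0.76 (adjusted p = 0.35, edgeR).

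**Figure D3:**
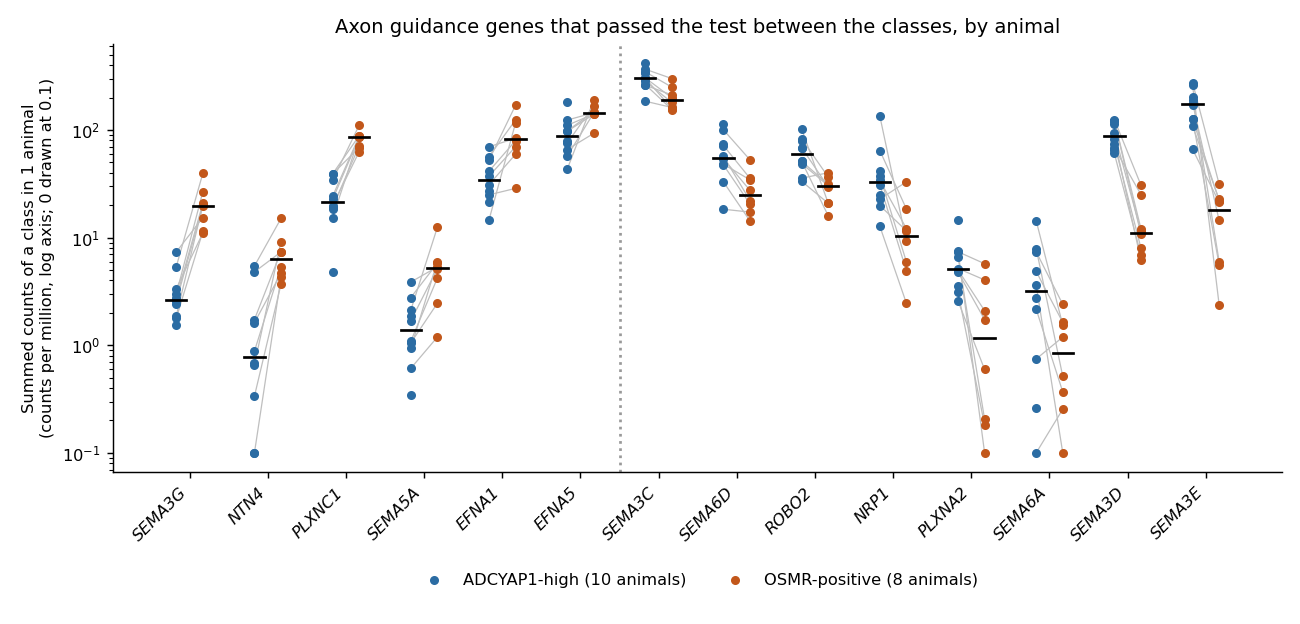
CPM (log axis, values of 0 drawn at 0.1) of the 14 guidance genes that passed, in sums of the ADCYAP1-high cells of each of 10 animals and of the OSMR-positive cells of each of 8 animals; grey lines join the same animal and black bars are medians. Genes left of the dotted line were higher in OSMR-positive neurons, and PLXNC1, SEMA3G, SEMA3D and SEMA3E show no overlap.

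Among the semaphorin receptors, PLXNC1 (ENSSSCG00000000907), the receptor of SEMA7A, ran from 62.95 to 111.1 CPM (median 85.8) in OSMR-positive and from 4.82 to 39.2 CPM (median 21.3) in ADCYAP1-high sums. There was no overlap, and the log2 difference was 1.68 ± 0.20 (adjusted p = 4.38e-05, edgeR, higher in 8 of 8 animals). In the annotation PLXNC1 overlaps CEP83, and Smart-Seq2 reads do not mark the strand. CEP83 had a log2 difference of -1.15 ± 0.44 (adjusted p = 0.132, edgeR). Whether its reads enter the level of PLXNC1 was not tested.

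PLXNA2 (ENSSSCG00000026412), a receptor of class 6 semaphorins and, with neuropilins, of class 3, ran from 0 to 5.73 CPM (median 1.16) in OSMR-positive and from 2.58 to 14.4 CPM (median 5.09) in ADCYAP1-high sums. The log2 difference was -1.91 ± 0.55 (adjusted p = 0.0411, edgeR, lower in 8 of 8 animals), and the call was lost in 14 of 23 alternative analyses, among them those without animal 2, 4, 6, 7, 9 or 10 (adjusted p from 0.0635 to 0.106, edgeR). PLXND1, the receptor of SEMA3E, had a difference of 0.75 ± 0.29 that did not pass (adjusted p = 0.13, edgeR), with medians of 9.13 CPM in OSMR-positive and 5.29 CPM in ADCYAP1-high sums. PLXNA1, PLXNA4 and PLXNB2 had log2 differences of -0.98, 0.04 and 0.33 and did not pass.

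NRP1 (ENSSSCG00000011102), the co-receptor of SEMA3A and other class 3 semaphorins, ran from 12.8 to 134.8 CPM (median 32.6) in ADCYAP1-high and from 2.46 to 33.02 CPM (median 10.4) in OSMR-positive sums. The ranges overlapped, and the level was lower in 7 of 8 animals, with a log2 difference of -1.83 ± 0.40 (adjusted p = 0.00819, edgeR). NRP2 had medians of 9.32 CPM in OSMR-positive and 20.5 CPM in ADCYAP1-high sums and a log2 difference of -0.76 ± 0.34 that did not pass (adjusted p = 0.207, edgeR).

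Both A-type ephrins that were described, EFNA1 and EFNA5, were higher in OSMR-positive neurons. EFNA1 (ENSSSCG00000006530), a ligand of EPHA2, ran from 28.7 to 170 CPM (median 81.8) against 14.6 to 69.9 CPM (median 34.2). The log2 difference was 1.12 ± 0.26 (adjusted p = 0.0122, edgeR, higher in 8 of 8 animals). EFNA5 (ENSSSCG00000036520), a ligand of EPHA5 and EPHA7, ran from 93.1 to 188.7 CPM (median 144.6) against 43.04 to 182.7 CPM (median 88.3), with a difference of 0.85 ± 0.20 (adjusted p = 0.0136, edgeR, higher in 8 of 8 animals). EFNA1 lost its call at doubled class limits (adjusted p = 0.0518) and, at a difference of 0.55, with cells of 1 day alone (adjusted p = 0.409, both edgeR). EFNA5 lost its call without the animal block, at an adjusted p of 0.0746, and with cells of 1 day alone, at 0.0751. EFNB1, a B-type ephrin, had a difference of 0.54 ± 0.46 and did not pass.

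None of the 6 Eph receptors tested passed. EPHA7 had a log2 difference of -1.82 ± 0.58 (adjusted p = 0.0622, edgeR, lower in 7 of 8 animals), with medians of 1.09 CPM in OSMR-positive and 4.14 CPM in ADCYAP1-high sums. EPHB1 was lower in 8 of 8 animals, by -0.81 ± 0.38, with an adjusted p of 0.231. EPHA2, the receptor of EFNA1, had a difference of 0.85 ± 0.59, and EPHA5 one of -0.33 ± 0.30. EPHB6, which lacks kinase activity, had -0.01 ± 0.29 with medians of 17.7 and 21.8 CPM.

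NTN4 (ENSSSCG00000000896), a netrin of basement membranes, ran from 3.69 to 15.1 CPM (median 6.37) in OSMR-positive and from 0 to 5.45 CPM (median 0.784) in ADCYAP1-high sums. It was higher in 8 of 8 animals, with a log2 difference of 2.42 ± 0.52 (adjusted p = 0.00711, edgeR). NTN1, the classical netrin, had 0.73 ± 0.44 and did not pass. UNC5C, a repulsive netrin receptor, had 2.01 ± 0.74 (adjusted p = 0.116, edgeR) and was higher in 5 of 8 animals.

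ROBO2 (ENSSSCG00000012002), a Slit receptor, ran from 33.4 to 102.2 CPM (median 59.7) in ADCYAP1-high and from 15.96 to 40.1 CPM (median 30.02) in OSMR-positive sums. It was lower in 7 of 8 animals, with a log2 difference of -1.02 ± 0.24 (adjusted p = 0.0129, edgeR). With every cell weighted equally in limma on log2(CPM + 1) the difference was -0.69 with an adjusted p of 0.214. Its neighbour ROBO1 had 0.76 ± 0.31, which did not pass (adjusted p = 0.156, edgeR), and was detected in 85% of OSMR-positive and 60.2% of ADCYAP1-high cells. SLIT1 and SLIT2 had differences of 0.75 ± 0.48 and -0.63 ± 0.41 and did not pass. SLIT3, too low to be tested, had medians of 0.511 and 0.955 CPM.

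The count was repeated without the cells highest in markers of other types, whose part in the results was not tested otherwise. Without the tenth of cells highest in macrophage genes, 11 of the 37 passed, and the calls of EFNA1, PLXNA2 and SEMA6A were lost. Without the tenth highest in the satellite glia and Schwann cell lists, 8 passed, 3 higher and 5 lower, and the calls of EFNA1, NTN4, SEMA5A, ROBO2, PLXNA2 and SEMA6A were lost. That step removed 14 of 60 OSMR-positive and 5 ADCYAP1-high cells. A further analysis, chosen after the levels of PMP22 had been seen, ranked cells by the same lists without PMP22 and ERBB3 and removed 4 OSMR-positive and 12 ADCYAP1-high cells. There 13 of 35 tested passed, 6 higher and 7 lower, and of the 14 calls SEMA6A was lost. The share of all genes called in these settings is not given here. Whether the losses are particular to guidance genes was not tested.

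When cells of 1 day in culture alone were used, 5 of 34 tested genes passed, 4 of them among the 14. The fifth was UNC5C, at a log2 difference of 3.89 with an adjusted p of 0.0217 in edgeR, named here after its value was seen. SEMA3D, SEMA3E, PLXNC1 and ROBO2 kept their call and direction, and SEMA3G had a log2 difference of 2.53 with an adjusted p of 0.0789. Over all genes fewer were called as well, and that count is given at the end. Whether the loss is particular to guidance genes was not tested.

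Split by day, the medians of the 4 genes without overlap kept their order. SEMA3E had medians of 129.4 CPM in ADCYAP1-high and 13.2 CPM in OSMR-positive sums at 1 day, and of 199.9 and 8.87 CPM at 2 days. SEMA3D had 103.8 and 7.12 CPM at 1 day and 83.4 and 12.6 CPM at 2 days. PLXNC1 had 28.2 and 96.9 CPM, then 12.8 and 79.2 CPM, and SEMA3G 3.56 and 18.2 CPM, then 0.613 and 23.6 CPM, each with ADCYAP1-high first. The ranges of the animals did not overlap on either day for SEMA3E, PLXNC1 and SEMA3G. For SEMA3D they did not at 1 day, and at 2 days the lowest ADCYAP1-high sum, 29.6 CPM, lay below the highest OSMR-positive one, 43.2 CPM. These 4 genes were chosen for their lack of overlap over all days, from the same cells. The share of all genes without overlap on each day was not counted.

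**Figure D4:**
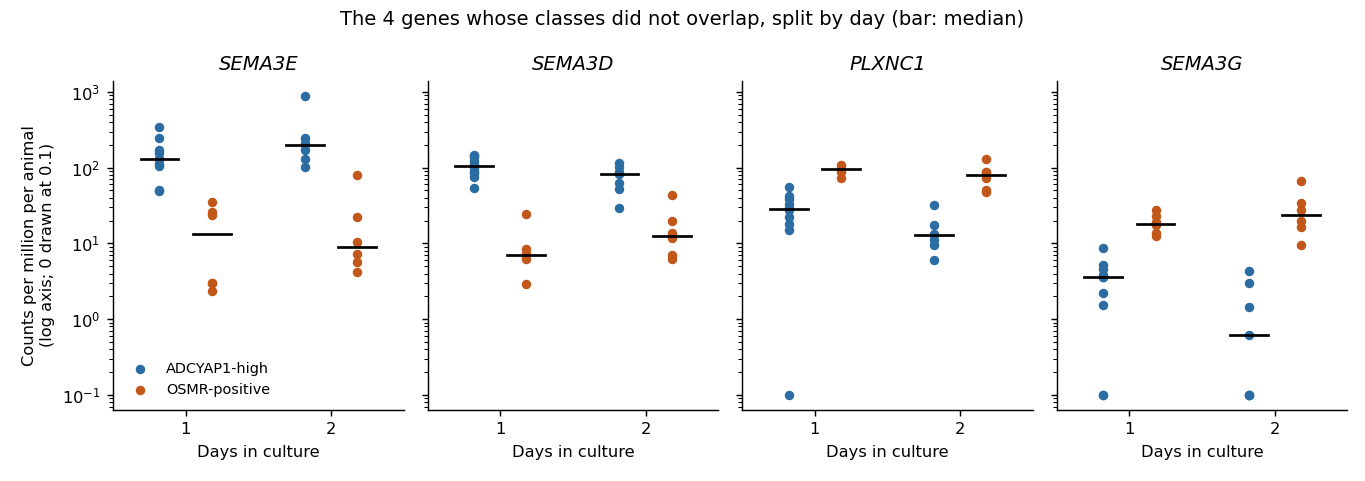
CPM (log axis, values of 0 drawn at 0.1) of SEMA3E, SEMA3D, PLXNC1 and SEMA3G in sums of each class per animal at 1 and 2 days in culture (10 and 7 ADCYAP1-high sums, 6 OSMR-positive sums at each day); black bars are medians. The classes do not overlap on either day, except SEMA3D at 2 days. The genes were chosen for their lack of overlap over all days.

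Whether the class difference itself changed from 1 to 2 days was tested as an interaction on 29 sums. None of the 36 described guidance genes tested passed, and none of the 16850 genes did (0%). At an unadjusted p under 0.05 there were 1 described guidance gene and 748 genes in all. That gene was SEMA3D, with an interaction of 1.29 ± 0.50 on the log2 scale (unadjusted p = 0.0153, adjusted p = 0.999, edgeR). Of 3 guidance genes found in fewer cells and tested, PLXNB1, named after its value was seen, also lay under 0.05, at 4.40 ± 1.56 (unadjusted p = 0.00997, adjusted p = 0.999, edgeR).

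The day comparison asked how the genes change with time in culture, over all cells of an animal. Shares of the classes differed between the days: OSMR-positive cells were 25%, 26.9% and 33.3% of the cells at 1, 2 and 3 days, and ADCYAP1-high cells 62.9%, 56.4% and 45.8%. Cells with neither marker were 10.48%, 11.5% and 20.8%. EPHB6 was detected in 33.3% of the latter, against 76.7% of OSMR-positive and 64.7% of ADCYAP1-high cells, and the mean of SEMA6A over cells was 6.35 CPM in them, against 2.01 and 3.72 CPM. A fit of the days over sums by class, with the class as a term, leaves out the cells with neither marker or both. It gave EPHB6 a log2 difference of -2.41 at 3 days against -2.46 over all cells. Whether the shares of the classes play a part in the differences by day was not tested. At 2 against 1 day, 0 of 38 described guidance genes passed, as did 0 of 20267 genes (0%). With an unadjusted p under 0.05 there were 1 described guidance gene and 755 genes in all.

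EPHB6 was that gene. It ran from 11.6 to 33.97 CPM (median 22.9) at 1 day, from 3.38 to 24.4 CPM (median 9.93) at 2 days and was at 4.77, 6.0 and 6.26 CPM in the 3 animals sampled at 3 days. The log2 difference at 2 days was -1.16 ± 0.30 (unadjusted p = 0.0019, adjusted p = 0.9998, edgeR) with a lower level in 6 of 7 animals. At 3 days it was -2.46 ± 0.46 (adjusted p = 0.157, edgeR). In DESeq2 the adjusted p was 0.0166 at 2 days and 5.43e-07 at 3 days. EPHB6 overlaps TRPV6 in the annotation, and reads of the pair could not be told apart by strand.

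At 3 against 1 day, 0 of 38 passed and 1 of 20267 genes did (0.00493%), with 5 described guidance genes and 2572 genes in all at an unadjusted p under 0.05. EPHA3, found in too few cells to be described and named after its value was seen, was at 0 CPM in the 3 animals at 3 days, against 0.201 to 5.22 CPM (median 1.53) at 1 day (unadjusted p = 0.00332, adjusted p = 0.234, edgeR). SEMA6A was at 14.0, 18.9 and 29.1 CPM in the 3 animals at 3 days, against 0 to 7.53 CPM (median 0.768) at 1 day and 0 to 6.10 CPM (median 2.81) at 2 days. All 3 sums at 3 days lay above all sums at the other days, and how many of all genes do so was not counted. The log2 difference was 3.98 ± 1.15 (adjusted p = 0.238, edgeR). With the class as a term it was 4.91 with an adjusted p of 0.0372, and in DESeq2 4.09 with 0.00725. The animals sampled at 3 days were also sampled at 1 day.

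The other 3 were lower at 3 days, without passing. SEMA3C was from 54.9 to 200.9 CPM against a median of 260.3 CPM at 1 day, a log2 difference of -1.0 ± 0.43. PLXNA4 was at 0.714, 2.63 and 6.47 CPM against a median of 6.07 CPM, a difference of -1.72 ± 0.74. UNC5C was at 0, 0.164 and 0.209 CPM, which is 2 counts in all, against a median of 1.74 CPM. UNC50, one of the genes that share only a prefix, had a difference of 0.91 ± 0.27 at 3 days (adjusted p = 0.239, edgeR).

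**Figure D5:**
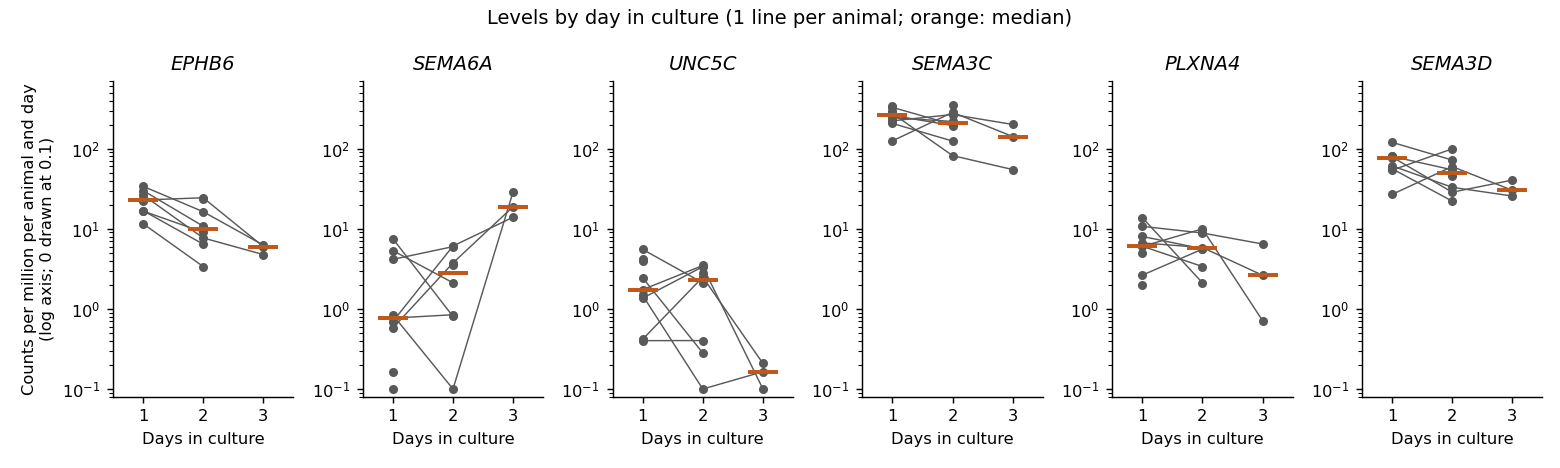
CPM (log axis, values of 0 drawn at 0.1) of 6 guidance genes in sums of all cells of each animal by day in culture; each line is an animal and orange bars are medians. EPHB6 lies lower at 2 and 3 days, SEMA6A lies higher in the 3 animals sampled at 3 days, and no gene passed in edgeR.

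How often a ligand and its receptor occur in the same cell was counted for 21 known pairs, with no test. SEMA3D and NRP1 were both detected in 81.2% of ADCYAP1-high and 48.3% of OSMR-positive cells. SEMA3C with NRP1 had 82.7% and 68.3%. SEMA3E with PLXND1 had 54.9% and 40.0%, again with ADCYAP1-high cells first.

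Other pairs were more frequent in OSMR-positive cells. SEMA3G and NRP2 were found together in 58.3% against 25.6% of ADCYAP1-high cells, SEMA7A and PLXNC1 in 35% against 10.53%, and EFNA1 and EPHA2 in 43.3% against 22.6%. EFNA5 and EPHA5 had 66.7% against 45.1%, and SLIT1 and ROBO2 65% against 43.6%. Most of the 21 pairs lay above the product of the 2 separate shares. There were 15 in OSMR-positive cells (differences from -5.17 to 8.06 percentage points) and 19 in ADCYAP1-high cells (-1.23 to 5.71 points). Other gene pairs were not counted and cells differ in total counts, so whether this is particular to ligands and receptors was not tested. SEMA6A and PLXNA2 were found together in 10% of OSMR-positive cells against a product of 5.42%. For SEMA3G with NRP2 that product was 55.6% in OSMR-positive and 22.1% in ADCYAP1-high cells, and for SLIT1 with ROBO2 it was 56.9% and 40.96%.

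The guidance genes also varied within a class. Over animals, the coefficient of variation of EFNA5, PLXNC1 and SEMA3C in OSMR-positive sums was 18.7%, 18.3% and 25.3%, and that of SEMA3D and SEMA3E was 65.3% and 65.5%. In ADCYAP1-high sums SEMA3C and SEMA3D had 20.98% and 27.96%, and NTN4 and SEMA6A, both low in counts, had 120.3% and 101.2%. Over cells, SEMA3E in the ADCYAP1-high class had quartiles of 39.2 and 221.3 CPM around a median of 117.98 CPM, and in OSMR-positive cells of 0 and 19.8 CPM around 2.54 CPM.

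Pairs of the 14 genes were compared across cells within each animal, as the mean Spearman correlation over animals with at least 6 cells of the class, as a description. In OSMR-positive cells (48 cells, 5 animals) SEMA3C and SEMA3D had a mean of 0.59, positive in 5 of 5 animals, and EFNA5 and SEMA3G one of 0.55, also in 5 of 5. In ADCYAP1-high cells (8 animals) ROBO2 and SEMA3C had 0.43 and PLXNC1 and ROBO2 0.43, each positive in 8 of 8 animals. These pairs were chosen after their values were seen, and the cells of an animal differ in depth. Whether depth or library preparation plays a part was not tested.

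Against the recorded properties, described in the same way and picked for size among 352 values, EPHB6 and the deposited capacitance value had a mean correlation of 0.45 in OSMR-positive cells, positive in 5 of 5 animals. PLXNA2 and the duration of the action potential had -0.41, negative in 5 of 5. SLIT1 and the deposited value for stimulation at 50 Hz had -0.36, negative in 5 of 5. In ADCYAP1-high cells EPHA2 and the duration of the action potential had -0.32, negative in 8 of 8 animals.

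The 27 cells with neither marker came from 7 animals and had a summed neuronal level of 14812.5 CPM at the median, with animal medians from 988 to 17410 CPM. The mean per animal of SEMA3E in them ran from 0 to 165.5 CPM (median 13.02), and that of SEMA3D from 0.736 to 52.5 CPM (median 6.32). PLXNC1 ran from 0 to 103.9 CPM (median 26.1) and SEMA3G from 0 to 27.7 CPM (median 1.02). No test was made on these cells.

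Other genes of the pathway were taken from lists of co-receptors, adhesion partners and downstream proteins. Of 67 genes 64 were measured and 58 tested, and 7 were higher and 8 lower in OSMR-positive neurons, or 25.9% against 9.06% of all genes. Their median log2 difference was -0.06, beside -0.03 over all genes.

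Of 7 members of the L1 family and the contactins, cell adhesion molecules that act as co-receptors, 3 were higher and 1 lower. CNTN1 was higher by 0.86 ± 0.18, CHL1, a co-receptor with neuropilins, by 0.81 ± 0.18 and NRCAM by 1.12 ± 0.22 on the log2 scale. CNTN4 was lower in 8 of 8 animals, at medians of 1.82 against 41.5 CPM (log2 difference -4.41 ± 0.50, adjusted p = 3.16e-05, edgeR). NEO1, a DCC-like receptor of netrins and RGM proteins, was higher by 1.41 ± 0.42, and its ligand RGMB was lower, at -1.09 ± 0.18.

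FLRT3, a membrane protein that binds UNC5 and latrophilins, was lower at medians of 43.1 against 187.6 CPM (log2 difference -2.15 ± 0.28, adjusted p = 8.72e-05, edgeR), and was 1 of 5 tested in its list. Of 4 tested collapsin response mediators, which act downstream of semaphorins, DPYSL5 was higher by 0.76 ± 0.21. TIAM1, an exchange factor for Rac, was higher in 8 of 8 animals at medians of 63.1 against 9.09 CPM (log2 difference 2.89 ± 0.30, adjusted p = 1.44e-05, edgeR). PLXDC2, a plexin-domain protein, was higher by 1.42 ± 0.21.

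Lower too was RND2, at medians of 0.0906 against 6.82 CPM and a log2 difference of -4.64 ± 0.73. MICAL1, an actin-oxidising enzyme downstream of plexins, had -1.87 ± 0.53, PAK3, a Rac effector kinase, -1.12 ± 0.25, NCK2, an adaptor, -1.09 ± 0.29, and LIMK2, a cofilin kinase, -0.82 ± 0.22. Each of these 5 passed at an adjusted p under 0.05 in edgeR and was lower in 7 or 8 of 8 animals.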

How the data were processed

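The members and lists were chosen with earlier results of these data known. The deposited gene table gives estimated counts for each gene and cell, which the authors left unscaled, and 52.1% of its nonzero entries are fractional. Which tool counted, which aligner and which genome build were used is not stated in the sources used here, so no coordinates or sequences are printed. The submitters' processing notes name bcl2fastq 2.20. The deposited cell table adds other recorded values per cell, without units from the authors, and the animal. Of its 269 entries, 43 match no sample used here.

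Animals served as replicates, and where an animal gave sums on both sides of a comparison, the animal itself pairs the sums. Estimated counts were added up per animal and class (2 cells or more; animals 3 and 8 gave no OSMR-positive sum), per animal and day (3 cells or more, 20 sums) or per animal, class and day (2 cells or more), and rounded. CPM of sums use TMM-scaled totals. The test was edgeR 4.0.16 in R 4.3.3 (TMM, filterByExpr, quasi-likelihood, animal as a block, Benjamini-Hochberg over all genes tested, threshold 0.05), and the standard error is the log2 difference divided by the root of its F. Class sums held from 673329 to 41629426 counts. Alternatives were DESeq2 1.42.0, limma 3.58.1, other scaling, filters, class limits and cell minimums, and animals or marker-rich cells left out; 1 of them, the glial lists without PMP22 and ERBB3, was chosen after seeing the data. The fits were tested on simulated data.

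Every described gene that passed between classes is named, with full statistics for up to 8 per direction with a mean log2 CPM over 2 and the fold change for the rest. Also named are the 5 described genes with the smallest p by day and partners of genes that passed.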

Additional observations from a re-analysis of the deposited data

Results flagged for a closer look

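In 4 of 46 groups of sums examined, 1 animal stood apart from the others. Chance sets about 1 in 20 such groups apart. NRP1 in the ADCYAP1-high sums was at 134.8 CPM in animal 2 (11 cells), with the next animal at 64.6 CPM. Without animal 2 the log2 difference between the classes was -1.51, with an adjusted p of 0.0173 in edgeR. PLXNA2 in the ADCYAP1-high sums was at 14.4 CPM in animal 8 (5 cells), with the next at 7.50 CPM. Without animal 8 its difference was -1.93 with an adjusted p of 0.0408 in edgeR. Animal 8 gave no OSMR-positive sum and its block takes up its level, so leaving it out cannot test the class difference. SEMA5A in the OSMR-positive sums was at 12.4 CPM in animal 4 (10 cells), with the next at 5.999 CPM, and without animal 4 its adjusted p was 0.0693 in edgeR. PLXNA2 at 2 days was at 14.7 CPM in animal 8 (4 cells), with the next at 6.36 CPM.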

How the results depend on the processing

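Under all 23 alternatives SEMA3D, SEMA3E and PLXNC1 kept their direction and their call, and in none did any of the 14 genes change sign. The 23 include leaving out animal 3 or animal 8. Neither gave an OSMR-positive sum, so leaving either out cannot test the class difference. SEMA3G and NRP1 lost their call with cells of 1 day alone (adjusted p of 0.0789 and 0.0578 in edgeR), and PLXNA2 and SEMA6A in 14 alternatives each. The count of 14 became 17 with DESeq2 (PLXND1, UNC5C and EPHA7 added), 15 without a filter on low counts and 14 with DESeq2 size factors. Limma called 3 lower genes on log2(CPM + 1) and 4 on log2(CPM + 10), against 8, and 9 higher ones on both, against 6. Cells of 1 day alone gave 5 (2 higher, 3 lower), and cells without the 10% highest in glial genes gave 8 (3 higher, 5 lower). Leaving out 1 animal at a time gave 11 to 15 (5 to 7 higher, 6 to 9 lower), with the lowest without animal 4 or animal 7, and 0 at both days. Without the animal as a replicate block 11 genes passed (5 higher, 6 lower), and the counts by day and for the interaction stayed at 0. By day, DESeq2 called 1 gene at 2 days and 2 at 3 days, and sums by class with a class term called 1 at 3 days. Over all genes DESeq2 called 2670 between classes, cells of 1 day 687 and cells without the 10% highest in glial genes 854, against 1614, and at 3 days DESeq2 called 750, the class term 33 and no block 40, against 1. The share of calls between classes that were higher was 43.4%, but 62.4% in limma on log2(CPM + 1) and 54.7% with cells of 1 day, and the median log2 difference of all genes was 0.12 in DESeq2 against -0.03. Cells thinned to 100000 counts were asked for at least 1 read. The median share of cells with a gene detected was then 40% in OSMR-positive and 27.8% in ADCYAP1-high neurons. At 1 CPM without thinning it was 65.8% and 47.7%. At least 1 read of 100000 is a higher limit than 1 CPM, so the settings differ in more than depth. Asking for detection in 40% of the cells left 25 described genes instead of 38. Only 3 animals were sampled at 3 days, which limits that comparison. Depth limits the low genes: SLIT3 had 37 counts in all over the 8 OSMR-positive sums.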
